A study of Homo sapiens with 10 samples.

Results

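The cytosolic ribosomal protein genes are described here in A549 cells, a human lung adenocarcinoma line, after forced expression of EP300 and a short glucocorticoid treatment. They were chosen by symbol alone: RPL or RPS followed by a number, with at most a letter or a further number, together with RPLP0, RPLP1, RPLP2 and RPSA. The rule took 83 of the 25538 genes in the count table, 51 of the large (60S) and 32 of the small (40S) subunit, and 82 of them passed the expression filter, as did 19433 genes in all. The gene left out was RPS10L, with 23 reads over all libraries, whose identifier GENCODE 29 lists as the processed pseudogene RPS10P5. The 10 libraries formed 4 groups: P300 Dex (n = 2), P300 EtOH (n = 2), GFP Dex (n = 3) and GFP EtOH (n = 3). P300 cells had received 1 ug of a plasmid coding for EP300, a histone acetyltransferase and coactivator, fused in frame to EGFP, and GFP cells the same amount of a GFP plasmid. After 48 h in medium with charcoal-stripped serum, which is low in steroids, cells of both kinds were given 100 nM dexamethasone, a synthetic glucocorticoid (Dex), or its solvent ethanol (EtOH) for 1 h. They were then fixed in ethanol and sorted for GFP, so each library is RNA of transiently transfected, GFP-positive cells. The labels do not state whether a group's libraries are separate cultures. The p-values therefore rest on library-to-library spread alone, and this could be technical.

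Each ribosome holds a single copy of most of these proteins, with the acidic stalk proteins RPLP1 and RPLP2 as the known exception, and growing cells make the mRNAs of the whole set at high and roughly matched levels. Most of these mRNAs begin with a C followed by a run of pyrimidines, the 5' terminal oligopyrimidine (TOP) motif. Through it the mTOR pathway and the RNA-binding protein LARP1 control their translation and stability. In many cell types glucocorticoids raise DDIT4, an inhibitor of mTOR, and MYC drives transcription of ribosomal protein genes, which is background to the lists given last.

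The sequence that defines the set's shared control was examined at the annotated starts in RefSeq (GRCh38.p14), whose promoter table held 66 of the 83 genes. A C followed by at least 4 pyrimidines stood exactly at an annotated start in 47 of the 66 genes (71.2%), against 5.14% of all 27305 genes of that table. With the C allowed up to 5 bases away on either side, the tract was found in 54 of the 66 (81.8%), against 25.2% of all genes. The windows below, 15 bases before and 15 bases from the start on, are shown for members on which the results turn, with the tract in capitals (for RPL4 and RPL39 the tract runs past the window). They are the most abundant member (RPL13A), members that lead a comparison (RPLP2, RPS16, RPS7, RPL31), members that set the replicate numbers apart (RPL4, RPLP1), RPS27L, RPL26L1 and RPL22L1 each beside its partner, and RPL7L1 and RPL39 of further paralog pairs.
RPL13A (chr19:49487593-49487622, plus strand): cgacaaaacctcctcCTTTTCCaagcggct
RPLP2 (chr11:809952-809981, plus strand): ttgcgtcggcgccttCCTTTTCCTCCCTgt
RPS16 (chr19:39435935-39435964, minus strand): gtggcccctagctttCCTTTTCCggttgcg
RPS7 (chr2:3575245-3575274, plus strand): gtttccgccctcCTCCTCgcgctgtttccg
RPL31 (chr2:101002274-101002303, plus strand): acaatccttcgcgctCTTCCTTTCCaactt
RPL4 (chr15:66504841-66504870, minus strand): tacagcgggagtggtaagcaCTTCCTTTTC
RPLP1 (chr15:69452803-69452832, plus strand): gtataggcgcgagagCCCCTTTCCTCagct
RPS27L (chr15:63157463-63157492, minus strand): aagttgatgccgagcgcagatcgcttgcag
RPS27 (chr1:153990747-153990776, plus strand): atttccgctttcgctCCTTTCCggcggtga
RPL26L1 (chr5:172958714-172958743, plus strand): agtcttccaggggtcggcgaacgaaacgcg
RPL26 (chr17:8383179-8383208, minus strand): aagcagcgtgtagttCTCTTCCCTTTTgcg
RPL22L1 (chr3:170870181-170870210, minus strand): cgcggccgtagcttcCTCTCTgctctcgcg
RPL22 (chr1:6199581-6199610, minus strand): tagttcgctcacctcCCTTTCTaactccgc
RPL7L1 (chr6:42879601-42879630, plus strand): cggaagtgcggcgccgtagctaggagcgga
RPL39 (chrX:119791616-119791645, minus strand): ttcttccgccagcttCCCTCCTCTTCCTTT
The paralogs RPS27L, RPL26L1 and RPL7L1 had no such tract within 5 bases of a listed start, while RPL22L1 had one, as RPL22 did. The other members without it were RPL15, RPL17, RPL27, RPL6, RPL9, RPS15, RPS26, RPS29 and RPS4X. Over the 300 bases from 250 before to 50 after the start, the ETS-family core CCGGAAG, on either strand, was present in 36.4% of the 66 genes and in 12.2% of all genes, and the E-box CACGTG, which reads the same on both strands, in 7.58% and 8.77%. Among the 11251 genes of that table that passed the expression filter here, the shares were 19.8% for the ETS core, 7.07% for the tract at the start and 29.2% within 5 bases, and the E-box was again more frequent than in the members. These are matches of letters in annotated sequence, not measured binding.

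Gene counts per library ran from 9215550 to 13122367 in 9 libraries and came to 2278717 in P300 EtOH 2, where 3 counts correspond to 1.32 per 1000000 unscaled gene counts. Counts per 1000000 (CPM) are otherwise on library sizes scaled by edgeR's TMM factors. The transfected gene matched the labels: EP300 took 2.42% to 28.8% of all counts in the 4 P300 libraries, against 0.0271% to 0.0386% in the 6 GFP libraries. Mitochondrial and ribosomal RNA genes took 3.26% to 6.27% in P300 libraries, 8.49% and 9.31% in the GFP libraries of replicate number 2, and 3.44% to 3.93% in the other GFP libraries. The labels describe more than 1 kit for extraction and library making without saying which library had which. All 12 genes of a list for A549 and lung epithelial lines had reads in every library, and KRT8, an epithelial keratin, ran from 3716 to 12535 CPM.

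The ribosomal protein genes together took 1.24% to 1.73% of all gene counts, and how the groups compared depended on whether EP300 was counted. Their share of all gene counts was 1.24% and 1.73% in P300 Dex, 1.40% and 1.34% in P300 EtOH, 1.53%, 1.51% and 1.60% in GFP Dex and 1.49%, 1.42% and 1.65% in GFP EtOH. The lowest and the highest of these shares were both P300 Dex libraries, and both P300 EtOH libraries lay below all GFP libraries. Since EP300 reads displace all others, the share was also taken of counts without EP300. It was then 1.74% and 1.77% in P300 Dex, 1.97% and 1.55% in P300 EtOH, 1.53%, 1.52% and 1.60% in GFP Dex and 1.49%, 1.42% and 1.65% in GFP EtOH, so that both P300 Dex libraries lay above all GFP libraries and P300 EtOH overlapped them. The 95% Clopper-Pearson interval of a single share was narrow, 1.33% to 1.36% for the shallow P300 EtOH 2 library, and covers counting error only. Transcripts of the large subunit outweighed those of the small subunit 1.81 to 2.27 times in summed CPM, the lowest ratio being that of P300 EtOH 1. In bulk RNA, fewer cells making a transcript and less of it per cell cannot be told apart.

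**Figure D1:**
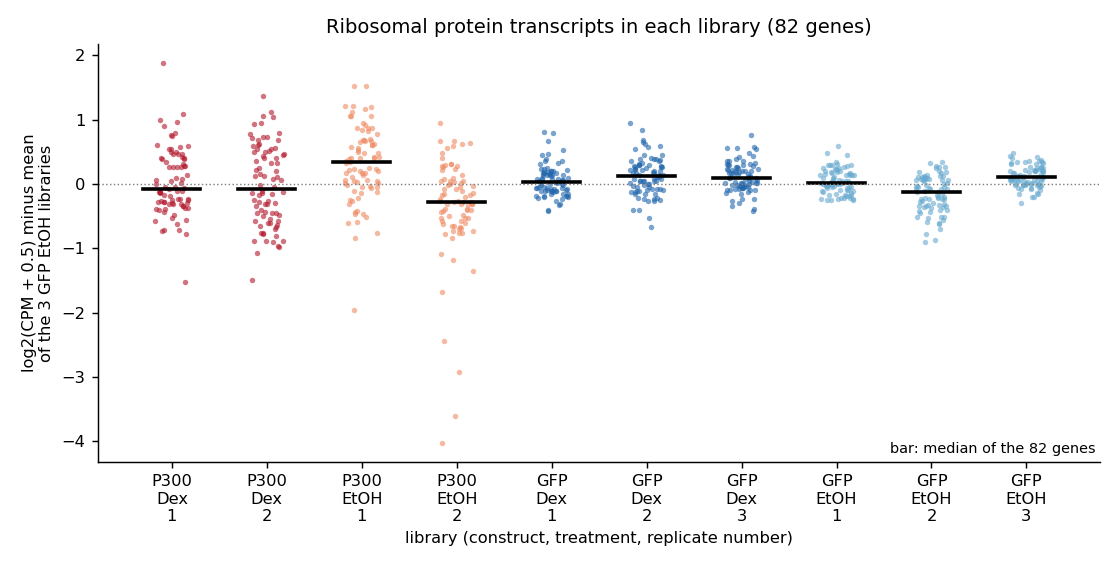
Each point is 1 of the 82 tested genes in 1 library, as log2(CPM + 0.5) minus the gene's mean over the 3 GFP EtOH libraries, and the bar is the median of the 82. The P300 libraries are spread far more widely than the GFP libraries, P300 EtOH 1 has the highest median (0.34), and P300 EtOH 2 has the lowest (-0.28) with several genes far below the rest.

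Single members differed widely in level. Mean CPM over the 10 libraries ran from 0.473 for RPL3L, a form used in heart and skeletal muscle, to 1073 for RPL13A, a large subunit protein, with a median of 127 over the 82 members, against 9.55 over all genes tested. RPL13A had 892 and 1448 CPM in P300 Dex, 798 and 1131 in P300 EtOH, 1049, 1024 and 1089 in GFP Dex and 1000, 1177 and 1126 in GFP EtOH. RPL19, RPL4 and RPL8 followed, with means of 974, 855 and 637 CPM. The lowest after RPL3L were RPL39L, a paralog of RPL39, at 5.16 CPM and RPL39, a small protein of the exit tunnel, at 6.93 CPM. Genes were compared per kilobase of coding sequence, which is only rough, because that length leaves out the untranslated parts of an mRNA. RPL41, with 75 coding bases, went from rank 77 in CPM to rank 53 on this scale. The median was 236 CPM for the large subunit and 239 CPM for the small subunit, and the order was led by RPL13A (1763), RPL19 (1657), RPS19 (1262), RPLP1 (1117) and RPLP2 (1028). Ranges over libraries overlapped between most neighbours in that order.

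**Figure D2:**
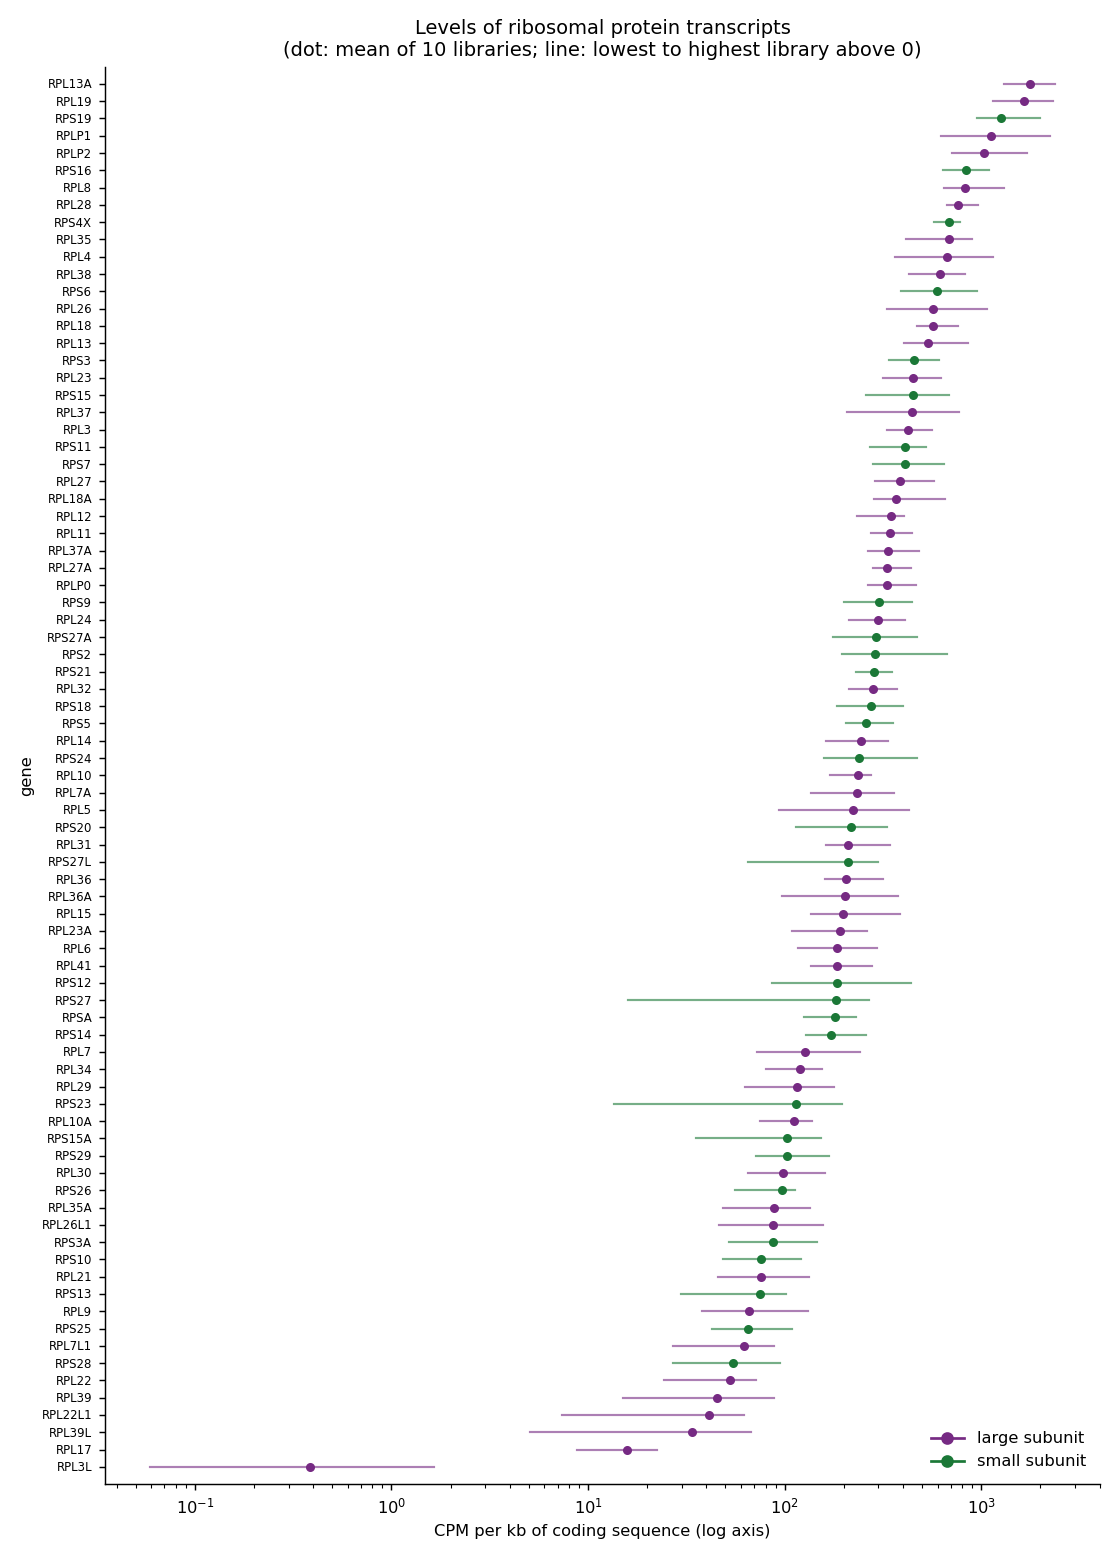
Dots are, for the members listed on the y axis, the mean over 10 libraries of CPM per kilobase of coding sequence, on a log axis, and lines run from the lowest to the highest library above 0. Levels fall gradually from RPL13A (1763) to RPL17 (15.8), with RPL3L (0.387) far below, and the lines of RPS27 and RPS23 reach far down because of 1 library.

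Some of that order bears on counting. GENCODE 29 lists 1136 pseudogenes of these members, most of all for RPL23A (91), RPSA (74), RPL21 (66) and RPL7 (61). The 40 members with at least 10 pseudogenes had a median of 184 CPM per coding kilobase, against 333 for the 42 with fewer (Spearman's rho of level with pseudogene number -0.23 over the 82 genes, a description). The part that shared sequence takes in these levels was not tested. Exons of 30 members also overlap another annotated gene, for 9 on the same strand (among them the readthrough loci RPL17-C18orf32, RPS10-NUDT3 and RPL36A-HNRNPH2), and their counts could hold reads of either gene.

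The first question the design poses is what 1 h of dexamethasone did in GFP cells. No ribosomal protein gene passed the test: 0 of 82 members passed an adjusted p of 0.05 in edgeR's quasi-likelihood test, where 0 of all 19433 genes did. At an unadjusted p under 0.05 there were 0 members, against 113 of all genes (0.581%). The fitted log2 fold changes of the members ran from -0.15 to 0.46 with a median of 0.09, beside a median of 0.00 over all genes, and 60 of the 82 (73.2%) were above 0, against 49.7% of all genes. The 95% interval of the fold change lay within 2-fold in both directions for 60 members. For these, changes of more than 2-fold are outside the interval. Smaller ones could not be resolved in this fit, which does not use the replicate numbers.

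Among the members with the smallest p the groups mostly overlapped. RPL31, a protein near the exit tunnel, had 69.1, 129 and 71.1 CPM in GFP Dex, against 73.8, 62.7 and 64.2 CPM in GFP EtOH (log2 fold change 0.42 ± 0.33 SE, edgeR adjusted p = 1.00). Its GFP Dex 2 library stood high and the other GFP libraries overlapped. RPL34 (0.26), RPS13 (0.33) and RPL4 (0.38), also among the smallest p, likewise overlapped between the groups. RPS26, which lies where mRNA leaves the small subunit, had 39.1, 38.2 and 38.4 CPM in GFP Dex, against 33.5, 32.4 and 33.3 CPM in GFP EtOH. It was the 1 member whose Dex libraries all lay above its EtOH libraries (log2 fold change 0.22 ± 0.27 SE, edgeR adjusted p = 1.00), where 4.03% of all genes did, and no member had them all below, where 4.90% of all genes did.

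Libraries of the same replicate number moved together, so the differences were also read within numbers. The median over the 82 members of Dex minus EtOH, in log2(CPM + 0.5), was 0.04 for number 1, 0.27 for number 2 and -0.05 for number 3, with 44, 61 and 31 members above 0. The positive median of the whole fit therefore came mainly from number 2. In that pair the difference correlated with coding GC content at a Spearman's rho of -0.55 over members and -0.62 over all genes with a GC value. For number 1 these were 0.15 and -0.09, and for number 3 -0.19 and -0.17. The part of GC content in the difference of number 2 was not tested. Without GFP EtOH 2 the fitted median was 0.03 and without GFP Dex 2 it was 0.05, while leaving out any of the other 8 libraries gave 0.08 to 0.17. Only 11 members (13.4%) were above 0 in all 3 pairs, against 20.1% of all genes, and 2 (2.44%) were below 0 in all 3, against 17.9%. With replicate number as a block and the GFP libraries alone, 277 of all genes were called (1.66%) and still 0 members. In that fit 5 members had an unadjusted p under 0.05, all of them higher with Dex, as did 8.40% of all genes in that direction: RPL26L1, RPL4, RPS13, RPS27A and RPS27L, with log2 fold changes of 0.27 to 0.37 and adjusted p of 0.215 to 0.281. The standard errors of these 5 were 0.11 to 0.14 there, against 0.38 to 0.51 in the fit of all 10 libraries without the block.

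Dexamethasone in P300 cells gave no called member either, 0 of 82, with 0 of all genes called and 2569 of all genes (13.2%) but 0 members at an unadjusted p under 0.05. The members' median was 0.01, against 0.13 over all genes, and 42 of 82 (51.2%) were above 0, against 56.6%. RPL15, a large subunit protein, had 102 and 84.8 CPM in P300 Dex, against 237 and 87.2 CPM in P300 EtOH. The difference was that of P300 EtOH 1, the other libraries being close together (log2 fold change -0.80 ± 0.41 SE, edgeR adjusted p = 0.444), and without P300 EtOH 1 the fitted value was 0.09. RPS10 and RPL30 were lower in both Dex libraries, RPS10 with 24.1 and 26.1 CPM in P300 Dex, against 59.9 and 26.8 CPM in P300 EtOH. RPL30 had 24.7 and 22.6 CPM, against 55.2 and 25.9 CPM. For both, the difference was again mostly that of P300 EtOH 1. RPL41, which codes for a very short peptide, had 17.9 and 20.8 CPM in P300 Dex, against 10.2 and 12.5 CPM in P300 EtOH, without overlap (log2 fold change 0.78 ± 0.41 SE, edgeR adjusted p = 0.451). In all, 5 members had both Dex libraries above both EtOH libraries, where 17.3% of all genes did, and 6 had them below, where 7.56% did.

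The P300 pairs went opposite ways. The members' median of Dex minus EtOH was -0.31 for number 1, with 21 of 82 above 0, and 0.29 for number 2, with 55 above 0, while over all genes it was 0.03 and 0.41. The fit accordingly turned on the EtOH libraries: its member median was 0.34 without P300 EtOH 1 (all genes 0.73) and -0.22 without P300 EtOH 2 (all genes 0.17). The test of whether the Dex difference itself differed between P300 and GFP cells called 0 of 82 members and 0 of all genes (1697 of all genes, 8.73%, and 0 members at an unadjusted p under 0.05), with a member median of -0.07, against 0.14 over all genes. RPL31 and RPL15 had the smallest p, each with an interaction of -1.02 ± 0.53 SE on the log2 scale and edgeR adjusted p of 0.647 and 0.650.

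**Figure D3:**
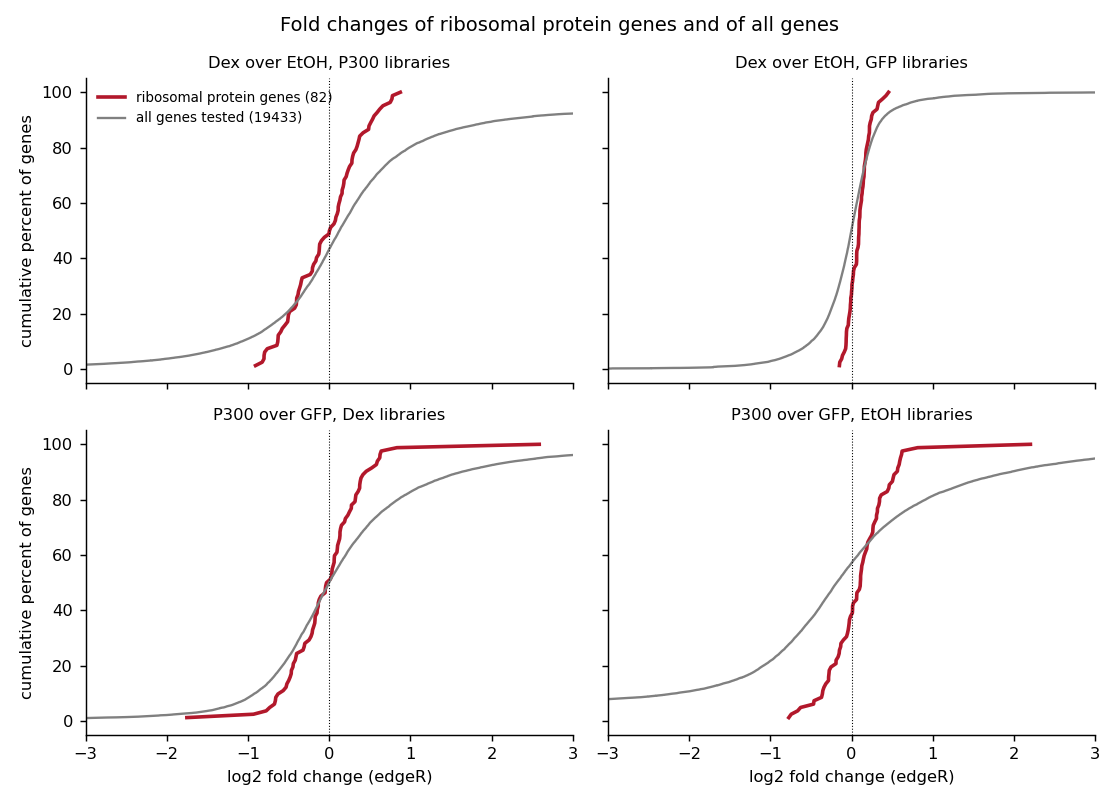
Each panel gives the cumulative percent of genes (y) up to a log2 fold change (x, cut at 3 on each side) for the 82 ribosomal protein genes and for all 19433 genes. The ribosomal protein curve is steeper than that of all genes in every panel, and in the EtOH panel of P300 over GFP it lies to the right through its middle, with medians of 0.11 and -0.18.

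The second question is what EP300 expression did. In EtOH, 541 of all genes differed between P300 and GFP (2.78%), 310 higher and 231 lower in P300, and 0 of 82 members did. The count over all genes was 0 to 5 when any 1 of the 6 GFP libraries was left out, and 1073 to 4187 when any 1 of the 4 P300 libraries was. At an unadjusted p under 0.05 there was 1 member, RPS16, against 5042 of all genes (25.9%, and 10.7% in its direction). RPS16, a small subunit protein at the decoding side, had 467 and 479 CPM in P300 EtOH, against 281, 358 and 319 CPM in GFP EtOH. Both P300 values lay above all GFP values (log2 fold change 0.56 ± 0.24 SE, edgeR adjusted p = 0.169). RPLP2 of the acidic stalk, which recruits elongation factors, had 408 and 451 CPM in P300 EtOH, against 244, 298 and 316 CPM in GFP EtOH, also without overlap (0.59 ± 0.27 SE, edgeR adjusted p = 0.200). RPL11, which carries 5S rRNA together with RPL5 and binds MDM2, had 238 and 194 CPM in P300 EtOH, against 155, 148 and 167 CPM in GFP EtOH. DESeq2 called RPS16 (0.70 ± 0.25 SE, adjusted p = 0.0408) and RPL11 (0.61 ± 0.21 SE, adjusted p = 0.0345) as higher, where it called 12.6% of all genes in either direction and 7.04% as higher. RPL32 was lower, with 89.0 and 86.3 CPM in P300 EtOH, against 122, 126 and 114 CPM in GFP EtOH (-0.46 ± 0.25 SE, edgeR adjusted p = 0.268). Members without overlap numbered 5 above, where 12.2% of all genes were, and 3 below, where 28.5% of all genes were.

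The whole set lay above the bulk of genes in this comparison, as a level and not as a test. Its median log2 fold change was 0.11, against -0.18 over all genes, and 51 of 82 members (62.2%) were above 0, against 42.9% of all genes. The sign of the members' own median rests on the scaling: it was 0.26 with DESeq2's size factors (RLE) and -0.15 with library sizes alone, where the median of all genes was -0.04 and -0.41. Relative to all genes the members stood 0.29, 0.30 and 0.26 higher with the 3 scalings. A new scaling shifts all genes by close to the same amount, so it could hardly change this difference. The sign of the members' median also rests on a library: without P300 EtOH 1 the median was -0.32 (all genes -0.87), and without P300 EtOH 2 it was 0.23 (all genes -0.25).

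Leaving out P300 EtOH 1 is the one setting that gave several calls among the members, and it leaves the shallow P300 EtOH 2 library alone in its group. Then 6 members were lower in P300 EtOH, RPS27, RPL39, RPS15A, RPS23, RPL22L1 and RPL7L1, where 12.7% of all genes were. In the same setting 3 members were higher with Dex in P300 cells, RPS27, RPS23 and RPL39, where 8.48% of all genes were, and RPS27 passed for the interaction, where 5.59% did in that direction. Without P300 Dex 1, RPS2 was higher with Dex in P300 cells, where 0.828% of all genes were. RPS27, a zinc-finger protein of the small subunit, shows the form: 36.4 and 29.5 CPM in P300 Dex, 65.4 and 4.02 CPM in P300 EtOH, 47.2, 67.8 and 41.0 CPM in GFP Dex and 66.6, 50.3 and 49.2 CPM in GFP EtOH. The value of 4.02 CPM stands for 9 reads. RPS23, next to the decoding centre, had 13 reads in that library (5.81 CPM), against 25.4 to 84.4 CPM elsewhere, and RPL39 had 0, under a floor of 1.32 CPM, against 2.31 to 13.6 CPM elsewhere. The calls made without P300 EtOH 1 rest on P300 EtOH 2, which holds fewer reads than any other library, and the part of its depth was not tested. That of RPS2 rests on P300 Dex 2 instead, with 588 CPM, against 223 and 229 CPM in P300 EtOH.

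In Dex, P300 and GFP cells also differed in 0 of 82 members, with 2 of all genes called (0.0103%), both higher in P300. RPLP2 and RPS7 were the 2 members at an unadjusted p under 0.05, where 12.7% of all genes were, 8.18% in that direction. RPLP2 had 343 and 590 CPM in P300 Dex, against 272, 322 and 304 CPM in GFP Dex (0.64 ± 0.27 SE, edgeR adjusted p = 0.354). RPS7, a small subunit protein that can bind MDM2, had 374 and 284 CPM in P300 Dex, against 230, 181 and 228 CPM in GFP Dex (0.63 ± 0.27 SE, edgeR adjusted p = 0.357). Both lay above all GFP values of their treatment, and RPLP2 did so in EtOH as well. RPS2, at the mRNA entry channel, had 172 and 588 CPM in P300 Dex, against 217, 196 and 227 CPM in GFP Dex, so that its fold change of 0.83 came from P300 Dex 2 and was -0.37 without it. Members without overlap numbered 8 above, where 14.9% of all genes were, and 19 below, where 18.3% of all genes were. The members' median was -0.01, against 0.00 over all genes, and 0.11 with RLE factors or -0.24 with library sizes alone, where all genes had 0.09 and -0.19. Both P300 comparisons and both Dex comparisons share groups, so their values are not independent of each other.

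Members also split by replicate number. In the GFP libraries, both libraries of number 2 lay above all 4 of numbers 1 and 3 for 12 members, where 19.7% of all genes did, and below for 18, where 22.7% did. RPL4, a large subunit protein that lines the exit tunnel, had 465 and 480 CPM in the number 2 libraries of GFP Dex and GFP EtOH, against 1296, 1245, 881 and 948 CPM in numbers 1 and 3. RPL5, the partner of RPL11 in the 5S particle, had 154 and 90.1 CPM in number 2, against 227, 230, 227 and 222 CPM in the others. RPLP1, the partner of RPLP2 in the stalk, went the other way, with 474 and 467 CPM in number 2, against 296, 302, 322 and 334 CPM.

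In the P300 libraries both of number 2 lay below both of number 1 for 33 of the 82 members (40.2%), where 28.9% of all genes did, and above for 16 (19.5%), where 20.8% did. Number 2 minus number 1 was below 0 for 18 of the 18 members that were lower in number 2 of GFP, 13 of them without overlap, and above 0 for 11 of the 12 that were higher, 4 of them without overlap, the exception being RPL38. Of the other 52 members 35 were below 0, and 20 lay below and 12 above without overlap. RPL4, which overlapped, had 496 and 640 CPM in number 2 of P300 Dex and P300 EtOH, against 1463 and 633 CPM in number 1, and RPL5 had 83.7 and 108 CPM, against 247 and 384 CPM. The 18 lower members had coding regions of lower GC content (median 47.9%) than the 12 higher ones (54.4%). Over the 82 members, the difference by number correlated with coding GC content at a Spearman's rho of 0.66 in P300 and 0.43 in GFP, and over 14418 genes at 0.40 and 0.54, so the relation was also present in the rest of the table. These rho values are descriptions over genes that share the same libraries. GC content and the share of mitochondrial and ribosomal RNA move with the numbers here. In P300 Dex and P300 EtOH that share was 5.28% and 6.27% in number 2, against 3.26% and 4.02% in number 1. The EP300 share moved with the number too, with 2.42% and 13.4% in number 2, against 28.8% and 28.6% in number 1. The part of GC content, of this RNA and of EP300 in the difference was not tested.

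**Figure D4:**
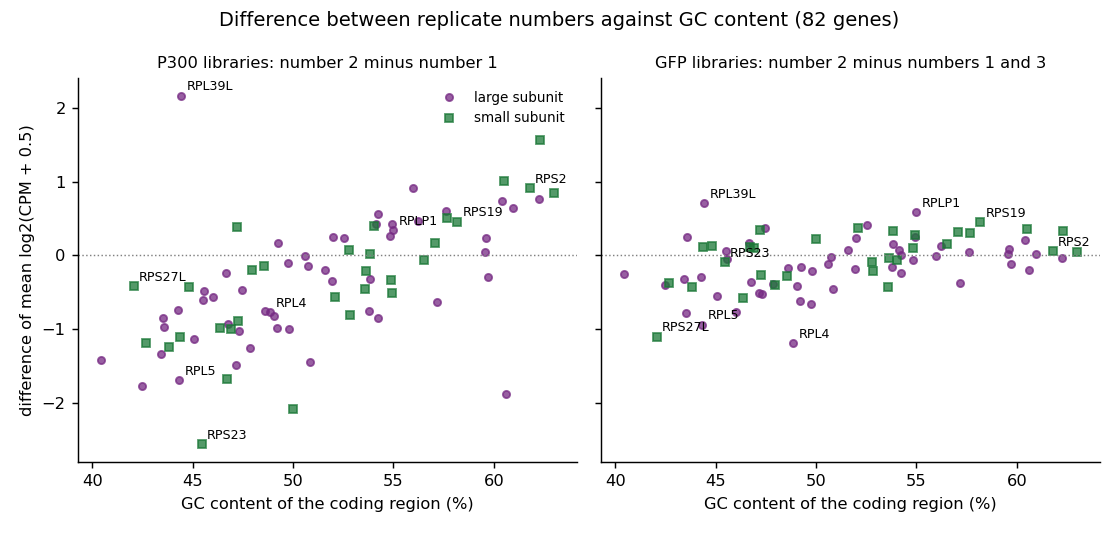
Each point is 1 of the 82 genes, with the GC content of its coding region in percent on the x axis and the difference between replicate numbers in mean log2(CPM + 0.5) on the y axis, for P300 (left) and GFP libraries (right). Points rise from lower left to upper right in both panels, with RPL5 low and RPLP1 and RPS19 above 0, and RPL39L stands apart as a gene of low GC content that is high in number 2.

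Over the 6 GFP libraries 67 of 82 members stayed within 2-fold from lowest to highest, with a median range of 1.53-fold. Over all 10 libraries 25 of the 82 did. The same share over all genes was not taken, so this is no trait of the set.

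Of the 7 paralog forms looked for, 6 were in the table and RPL10L was not analysed here. Shares are of the pair, per coding length. RPL3L, against RPL3 at the peptidyl transferase centre, was close to absent: it had 19 and 2 reads in P300 Dex, 13 and 0 in P300 EtOH, 4, 1 and 2 in GFP Dex and 2, 2 and 3 in GFP EtOH. It took at most 0.491% of the pair, and the counts above 4 were those of number 1 of the P300 libraries. RPL22L1 took 44.7% and 37.7% of its pair in P300 Dex, 39.3% and 23.1% in P300 EtOH, 39.0%, 52.6% and 45.0% in GFP Dex and 48.3%, 39.6% and 50.1% in GFP EtOH. RPL22 and RPL22L1 were thus of like level in most libraries, and P300 EtOH 2 was the low value, from 6 and 21 reads. RPL26L1 took 7.89% to 19.5% of its pair.

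RPS27L, a target of p53 in human cells, took 33.1% to 62.6% of its pair in 9 libraries and 94.9% in P300 EtOH 2, where RPS27 had 9 reads and RPS27L 168. RPL39L, best known from testis and from some tumours, took 8.24% to 72.5% in 9 libraries and all of the reads in P300 EtOH 2, from 16 reads. RPL7L1, a nucleolar factor of large subunit assembly, took 19.5% and 30.1% of its pair in P300 Dex and 26.7% and 23.7% in P300 EtOH, against 31.4% to 41.2% in the 6 GFP libraries. All 4 P300 values lay below all 6 GFP values, the nearest being 30.1% in P300 Dex 2 and 31.4% in GFP Dex 2. The partner's level differed too. RPL7 had 130 and 56.4 CPM in P300 Dex and 180 and 64.4 CPM in P300 EtOH, against 53.9 to 97.9 CPM in the 6 GFP libraries. In P300 EtOH 1 RPL7L1 itself was at its highest, so the low share there came with a high RPL7. In CPM, RPL7L1 had 32.3 and 24.9 in P300 Dex, against 58.6, 45.8 and 59.5 in GFP Dex (log2 fold change -0.93 ± 0.45 SE, edgeR adjusted p = 0.432), and 67.5 and 20.6 in P300 EtOH, against 63.4, 38.6 and 61.2 in GFP EtOH, where the groups overlapped.

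**Figure D5:**
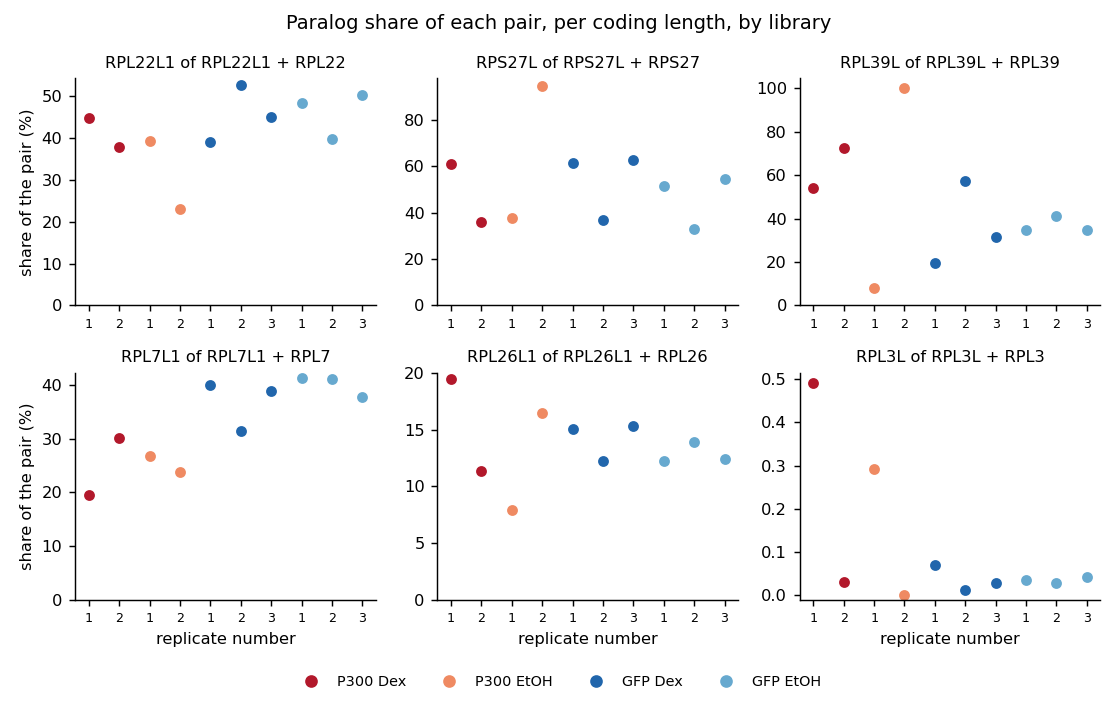
Each point is 1 library, and the y axis is the paralog's share of the reads of the pair, per coding length, in percent. The share of RPL7L1 is lower in all P300 libraries than in all GFP libraries, that of RPL3L is above 0.2% in number 1 of P300, and those of RPS27L and RPL39L reach 94.9% and 100% in P300 EtOH 2.

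Members with and without a TOP tract were set side by side, with no test of the difference. In GFP cells the median Dex change was 0.09 for the 54 with a tract within 5 bases, 39 of them above 0, and 0.11 for the 12 without, 10 of them above 0. For P300 over GFP in EtOH the medians were 0.11 and 0.09, and in Dex -0.04 and -0.30.

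Other genes of the pathway gave few calls. Of 28 further TOP mRNAs, such as EEF1A1, the elongation factor that brings aminoacyl-tRNA, and the snoRNA host SNHG5, 0 passed in any comparison, with 23 of 28 above 0 for Dex in GFP cells and a median of 0.14. Of 36 ribosome assembly factors 0 passed in any comparison. For P300 over GFP in EtOH 10 of the 36 were above 0, with a median of -0.43, and 5 were lower at an unadjusted p under 0.05, where 15.3% of all genes were, the smallest p being those of TSR2, the chaperone of RPS26, at -1.12 and UTP14A at -1.01. Of 75 mitochondrial ribosomal proteins, which make the separate ribosome of that organelle, 0 passed, 19 were above 0 in the same comparison, and the median was -0.42. The cytosolic set, with 51 of 82 above 0 and a median of 0.11, lay on the other side of 0. That side too depends on the scaling of the libraries, as given above. Of 76 mitochondrial ribosomal protein genes in the table, 15 had 0 reads in P300 EtOH 2, against at most 1 in the others. Their summed CPM was 1454 and 1462 in P300 EtOH, against 1893, 1640 and 2035 in GFP EtOH. The part of the low depth of P300 EtOH 2 in their median was not tested.

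None of the 19 genes of the RNA polymerase I machinery passed, with 6 to 9 above 0 by comparison, and none of the 17 mTOR and TOP regulators. DDIT4 was at 0.87 ± 0.40 for Dex in GFP cells (edgeR unadjusted p = 0.0498, adjusted p = 1.00). It had 81.4, 67.7 and 53.1 CPM in GFP Dex, against 37.1, 46.1 and 27.1 CPM in GFP EtOH, higher without overlap, as were 4.03% of all genes. EIF4EBP1, the translation repressor that mTOR switches off, was at -1.51 ± 0.42 for P300 over GFP in EtOH (edgeR adjusted p = 0.073). Calls in the other lists came from P300 over GFP in EtOH, where 2.78% of all genes were called and, as given above, few without any 1 GFP library. In the network of MYC, 1 of 8 genes rose: MXI1, an antagonist of MYC, had 62.0 and 38.5 CPM in P300 EtOH, against 12.2, 11.1 and 10.8 CPM in GFP EtOH (2.15 ± 0.47 SE, edgeR adjusted p = 0.0395). Of the 12 epithelial genes EPCAM rose in the same comparison (2.93 ± 0.62 SE, edgeR adjusted p = 0.0387), from a low level (0.918 to 18.8 CPM over the libraries). The list as a whole lay lower: only 2 of the 12 were above 0, with a median of -0.48, against -0.18 over all genes. At an unadjusted p under 0.05, 3 of the 12 were lower, where 15.3% of all genes were. The 9 genes in the table that mark blood, endothelial, fibroblast and other cells the line should lack summed to 56.4 to 63.9 CPM in P300 Dex, 65.0 to 85.4 CPM in P300 EtOH and 16.5 to 33.4 CPM in the 6 GFP libraries. Most of that sum was COL1A1, a collagen of fibroblasts, with 39.9 and 54.1 CPM in P300 Dex, 51.4 and 72.4 CPM in P300 EtOH and at most 28.0 CPM in the 6 GFP libraries. Of their 7 tested genes VWF, of endothelial cells, passed in EtOH (3.83 ± 0.90 SE, edgeR adjusted p = 0.0479), and PTPRC, CD68, ALB, SFTPC and COL3A1 were at 0 in at least 1 library. Their part in the P300 values of the ribosomal protein genes was not tested.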

How the data were processed

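The deposited table gives raw read counts per gene and library, whole numbers not normalized, per the file headers. The submitters' processing notes list the build GRCh37 and the tools STAR (2.4.2a), HTSeq (0.6.1p1), cutadapt and DESeq2 (1.10.1). Which annotation was counted, and whether strand was used, is not given in the sources used here. Overlapping and antisense genes and near-identical copies are therefore uncertain. The authors' normalized values were left aside.

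Counts were tested with edgeR 4.0.16 (R 4.3.3; TMM factors, default filter by group, quasi-likelihood test, group as the only term, all 10 libraries in 1 fit) for 5 contrasts, two-sided, with Benjamini-Hochberg adjustment over 19433 genes and a threshold of 0.05. Standard errors are the log2 fold change over the root of the F statistic. The fit was tested on simulated data. CPM are on TMM-scaled sizes, and differences within numbers use log2(CPM + 0.5). Coding length, GC content, pseudogenes and overlaps came from GENCODE 29 by gene identifier, start windows from RefSeq (GRCh38.p14) by symbol. Both are of another build than the counts, so their coordinates are given only with their own build.

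Groups and replicate numbers came from the titles. Across genes, the deviation of a library from its group mean correlated with that of the equally numbered libraries of other groups in all 13 cases (r = 0.113 to 0.601). For unequal numbers r was -0.484 to 0.240 (24 cases). These cases are not independent: in a group of 2 libraries the deviations mirror each other, so values recur with the sign turned. Centring on group means also pushes r for unequal numbers below 0. Between GFP EtOH and GFP Dex, with 3 libraries each, r was 0.357, 0.601 and 0.412 for equal numbers and -0.484 to 0.202 for unequal ones. The number was therefore taken to pair libraries. Totals of 2278717 to 13122367 counts set the precision. Intervals and floors (3 counts) are for counting error alone, because PCR copies cannot be recognised here. Alternatives were RLE factors, library sizes alone, EP300 or mitochondrial and ribosomal RNA genes left out, no filter or 5 CPM in 2 libraries, DESeq2 1.42.0, limma-voom (limma 3.58.1), only the libraries compared, the replicate block and each library left out.

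Members and lists were chosen with earlier results of these data known. Named members are, per contrast, those past the threshold or else the 5 of smallest p, the 5 highest and 3 lowest in level, and the paralog forms with their partners. Single values of 1 such member and of 1 marker gene are not reported here, and the plot of levels leaves that member out. From each other list up to 4 called genes, or else the 2 of smallest p, could be named. RPL5, RPLP1, RPS27, RPS23, RPL39 and other members named for a split by replicate number or an alternative setting were chosen after their values were seen. The lists were further TOP mRNAs, assembly factors, mitochondrial ribosomal proteins, RNA polymerase I machinery, mTOR and TOP regulators, the MYC network, and markers of A549 and of cells the line should lack.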

Additional observations from a re-analysis of the deposited data

Results flagged for a closer look

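In 4 members all 3 GFP pairs of the same replicate number were higher with Dex and both P300 pairs were lower (4.88%), a pattern found in 3.14% of all genes. For RPS27A the P300 pair of number 2 hardly differed, with 82.6 CPM in Dex, against 82.7 CPM in EtOH. The interaction on the log2 scale was -0.76 ± 0.83 SE for RPL5, -0.55 ± 0.53 SE for RPL23A, -0.48 ± 0.61 SE for RPS27A and -0.46 ± 0.34 SE for RPS16, with edgeR adjusted p of 0.929, 0.907, 0.947 and 0.842, so the difference between P300 and GFP cells did not pass the test for any of them. RPS16 had differences of -0.49 and -0.23 in the P300 pairs, against 0.12, 0.18 and 0.01 in the GFP pairs. The group sizes allowed no search for single outlying libraries.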

How the results depend on the processing

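Of 103 alternative fits, 98 called 0 members. DESeq2 called 2 for P300 in EtOH, RPS16 and RPL11, both higher, where it called 12.6% of all genes. With each library left out in turn, called members ran from 0 to 6 for P300 in EtOH, from 0 to 3 for Dex in P300 and from 0 to 1 for the interaction, all from fits without P300 EtOH 1 or P300 Dex 1, and stayed at 0 for Dex in GFP and P300 in Dex. Counts over all genes moved more. DESeq2 called 128 genes for the interaction, 712 for P300 in Dex, 2440 for P300 in EtOH, 503 for Dex in P300 cells and 5 in GFP cells. For P300 in EtOH limma-voom called 354 and the fit of only the libraries compared 49. For P300 in Dex EP300 left out gave 1, limma-voom 1, no expression filter 14 and only the libraries compared 0, and for Dex in GFP the last gave 7. With the replicate block within the libraries compared there were 150 for P300 in Dex, 6 for Dex in P300 and 277 for Dex in GFP. The block changed no member's call. Leaving out a library gave 0 to 4187 (P300 in EtOH), 0 to 499 (P300 in Dex), 0 to 2394 (Dex in P300) and 0 to 1407 (interaction). The cause was not tested.

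The member median for P300 in Dex moved by more than the spread between libraries, to 0.11 with RLE factors and with DESeq2, -0.24 with library sizes alone, 0.07 without EP300, 0.091 with 5 CPM in 2 libraries, -0.087 with limma-voom, -0.051 with the replicate block and -0.078 with the block within the libraries compared. Leaving out a library, it ran from -0.26 to -0.031 for P300 in Dex, from -0.22 to 0.34 for Dex in P300, from -0.32 to 0.23 for P300 in EtOH, from -0.34 to 0.27 for the interaction and from 0.03 to 0.17 for Dex in GFP. The mean share of counts became 1.76% in P300 EtOH without EP300, and without EP300, mitochondrial and ribosomal RNA genes 1.85% in P300 Dex, 1.88% in P300 EtOH and 1.64% in GFP Dex.

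Of 509 values of single members, 3 changed sign, each with 1 library left out. RPL15 for Dex in P300 ran from -1.32 to 0.089, RPL3L for P300 in EtOH from -4.10 to 2.86 and RPS2 for P300 in Dex from -0.37 to 1.44. In these fits a lone P300 library was assumed to vary like the other groups. Depth limits P300 EtOH 2, where 3 reads are 1.32 CPM, and with 2 P300 libraries a group the 95% interval of a fold change lay within 2-fold for 28 to 39 of the 82 members in the 3 comparisons of P300 groups, and for 10 in the interaction.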
